A study of Mus musculus with 9 samples.

Results

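The 10 genes described here are *Rag1*, *Rag2*, *Dntt*, *Igll1*, *Vpreb1*, *Vpreb2*, *Vpreb3*, *Il7r*, *Cd93* and *Sox4*, which mark developing B cells or act in the assembly of immunoglobulin genes. They were chosen by name, with earlier results of these data known, among the 55322 genes of the deposited table of FPKM (fragments counted on a gene, scaled to its exon length and to the reads of the library), and all 10 were found. B cells arise in the bone marrow (BM), where pro-B and pre-B cells respond to IL-7, cut and rejoin the V, D and J segments of the immunoglobulin loci, and display a first receptor in which a surrogate light chain stands in for the light chain. Recombination ends once a functional receptor is made, and mature B cells that reside in or return to the BM no longer use most of this machinery. The surrogate light chain is built from λ5 and VpreB, and RAG1 and RAG2 form the recombinase.

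The study used WT C57BL/6 mice and asked how B cells that carry CD11b, an integrin of myeloid cells, differ from those that do not. RNA was sequenced from CD11b+ and from CD11b- B cells of the BM, both taken 48 h after intraperitoneal LPS (5 mg/kg), and from peritoneal macrophages (PMs) of naive mice without treatment, with 3 libraries in each group. BM cells had been depleted of cells with CD3, CD4, CD8, Gr-1, NK1.1 or TER119 before they were sorted. Every B cell library therefore comes from LPS-treated mice, no B cells of naive mice are in the comparison, and the PMs differ from the B cells in cell type, site and treatment at once. The labels give the sorted cells as B cells and no stage, and they do not say whether a library holds 1 mouse or a pool, so p-values measure the spread between these libraries, part of which may be technical.

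Depth ran from 18014658 to 35251215 reads on genes. The 10 mature B cell genes examined, among them *Ighd*, which encodes the heavy chain of IgD, summed to 2330 to 2988 FPKM in the B cell libraries and to 209 to 273 FPKM in PMs. The 12 neutrophil genes examined summed to 1.83 to 3.12 FPKM in CD11b- B cells and to 215 to 1544 FPKM in CD11b+ B cells, and the 12 monocyte and macrophage genes to 52.8 to 58.2 and 134 to 313 FPKM. Both sums were lowest in replicate 3 among the CD11b+ B cell libraries. 1 library of each B cell group, named replicate 3 in the sample titles, stood apart in the genes described here, and both of these libraries carry the number 5 in the sample descriptions. Results that rest on them are therefore given with and without them. Replicate 3 was the shallowest CD11b- library (32056102 reads) and the deepest CD11b+ library (35251215 reads).

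The recombination genes were read almost solely in replicate 3. *Rag1*, which encodes the recombinase subunit that cuts DNA, stood at 0.0136, 0.0911 and 14.0 FPKM in CD11b- B cell replicates 1, 2 and 3, at 0.0206, 0.0694 and 2.96 FPKM in CD11b+ B cells, and at 0.0252, 0.00518 and 0.00750 FPKM in PMs. *Rag2*, its partner subunit, stood at 0.00875, 0.0251 and 12.9 FPKM in CD11b- B cells, at 0.0298, 0.0781 and 1.09 FPKM in CD11b+ B cells and at 0.0486, 0.0100 and 0.0145 FPKM in PMs. In both genes replicates 1 and 2 of the B cells lay in or near the range of PMs, which do not rearrange immunoglobulin genes, and replicate 3 lay far above it. *Dntt*, which encodes the polymerase that adds untemplated bases at junctions, had 1165 reads (15.9 FPKM) in CD11b- replicate 3 and 0 reads in CD11b- replicates 1 and 2, while CD11b+ B cells had 1, 0 and 190 reads (2.35 FPKM in replicate 3) and all PM libraries 0. Replicate 3 held 99.2% of the *Rag1* reads, 99.7% of the *Rag2* reads and 100% of the *Dntt* reads of CD11b- B cells, and 97.7%, 92.9% and 99.5% of those of CD11b+ B cells. *Rag1* (GRCm38, GENCODE M21, chromosome 2, 101638282 to 101649501, minus strand) and *Rag2* (chromosome 2, 101624718 to 101632529, plus strand) are neighbours that both overlap the annotated gene *Iftap*. No source used here gives the strand setting of the counting, and reads from an overlap could have been assigned to either gene. *Dntt* (chromosome 19, 41029275 to 41059525, plus strand) overlaps no other gene.

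The surrogate light chain genes were likewise highest in replicate 3 of both B cell groups, at higher levels. *Igll1*, which encodes λ5, stood at 0.0277, 0.0132 and 53.9 FPKM in CD11b- B cells and at 0.472, 1.39 and 12.7 FPKM in CD11b+ B cells, against 0.0158 to 0.103 FPKM in PMs. These are 2, 1 and 3737 reads in CD11b- and 30, 79 and 965 reads in CD11b+ B cells, so replicates 1 and 2 of CD11b+ B cells lay above all PM libraries and those of CD11b- B cells did not. *Vpreb1*, which encodes a VpreB chain, stood at 0.125, 0.789 and 41.5 FPKM in CD11b- B cells, at 0.852, 1.37 and 12.3 FPKM in CD11b+ B cells and at 1.02, 1.11 and 0.0413 FPKM in PMs. *Vpreb2*, a close copy of *Vpreb1*, stood at 0, 0.113 and 17.3 FPKM in CD11b- B cells, at 0.0449, 0.201 and 5.91 FPKM in CD11b+ B cells and at 0 in all PM libraries. Outside replicate 3, *Vpreb1* in B cells overlapped its level in PMs. *Igll1* (chromosome 16, 16860671 to 16863985) and *Vpreb1* (chromosome 16, 16868403 to 16870843) are neighbours on the minus strand, and *Vpreb2* (chromosome 16, 17980428 to 17981273) lies on the plus strand of the same chromosome. *Vpreb1* also overlaps *Top3b*.

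The levels of *Vpreb1* and *Vpreb2* may not be fully separable from each other. Their coding sequences, read from the GENCODE M21 transcripts on GRCm38, are 426 bases long each and differ at 9 bases, an identity of 97.9%. Their last 300 bases (positions 127 to 426 from the first base of the start codon) are shown with the 6 bases that differ in capitals. The counts of both genes may depend on how reads that match both were handled.
Vpreb1: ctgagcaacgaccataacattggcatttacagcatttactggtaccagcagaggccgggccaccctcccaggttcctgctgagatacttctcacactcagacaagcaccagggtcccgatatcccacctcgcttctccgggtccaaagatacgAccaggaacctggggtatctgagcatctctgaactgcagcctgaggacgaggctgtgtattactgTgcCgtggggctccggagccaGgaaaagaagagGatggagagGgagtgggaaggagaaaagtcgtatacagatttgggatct
Vpreb2: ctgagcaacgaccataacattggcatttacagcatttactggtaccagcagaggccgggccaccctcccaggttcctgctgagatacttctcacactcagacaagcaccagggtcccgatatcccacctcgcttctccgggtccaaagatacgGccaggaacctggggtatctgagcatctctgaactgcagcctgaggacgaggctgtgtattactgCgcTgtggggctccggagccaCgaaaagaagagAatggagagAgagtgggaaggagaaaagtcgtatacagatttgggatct
The longest identical run spans 196 bases, longer than a read of 150 bases. Reads were sequenced in pairs, so a pair can reach past a shared window. Of all 150-base windows of the *Vpreb1* transcript 7.53% also occur in that of *Vpreb2*, and at 50 bases 31.2% do. The longest *Igll1* transcript shares no 50-base window with *Vpreb1* or *Vpreb2*.

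*Vpreb3*, which encodes a VpreB-like chain of the endoplasmic reticulum that many B cells keep, was abundant in all B cell libraries. It stood at 407, 402 and 1188 FPKM in CD11b- B cells, at 295, 335 and 574 FPKM in CD11b+ B cells and at 2.20, 0.917 and 1.79 FPKM in PMs. Its lowest B cell library was thus far above its highest PM library, and replicate 3 was again the highest of each B cell group, but by 2.94-fold and 1.82-fold over the mean of replicates 1 and 2, where *Rag2* was 761-fold higher in CD11b- B cells. *Vpreb3* (chromosome 10, 75943057 to 75949657, plus strand) overlaps the annotated gene *Gm16221*. *Il7r*, which encodes the α chain of the receptor for IL-7, stood at 0.610, 0.615 and 36.5 FPKM in CD11b- B cells, at 0.694, 0.574 and 11.0 FPKM in CD11b+ B cells and at 0.0238, 0.272 and 0.0106 FPKM in PMs. Replicates 1 and 2 of both B cell groups lay between 0.574 and 0.694 FPKM, above all PM libraries. *Il7r* lies on chromosome 15 (9505788 to 9530176, minus strand).

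*Cd93*, which encodes the surface antigen used to identify immature B cells and is also made by macrophages, was the only member higher in PMs than in most B cell libraries. It stood at 5.60, 5.90 and 27.0 FPKM in CD11b- B cells, at 4.16, 4.22 and 8.58 FPKM in CD11b+ B cells and at 50.3, 29.7 and 34.1 FPKM in PMs. All B cell libraries lay below the lowest PM library, with CD11b- replicate 3 the closest to it. *Sox4*, a transcription factor needed for early B cell development, stood at 3.46, 4.45 and 9.47 FPKM in CD11b- B cells, at 0.880, 2.08 and 7.41 FPKM in CD11b+ B cells and at 0.0232, 0.0357 and 0.506 FPKM in PMs. All B cell libraries were above all PM libraries in *Sox4*. *Cd93* (chromosome 2, 148436640 to 148443563, minus strand) and *Sox4* (chromosome 13, 28948919 to 28953713, minus strand) overlap no other gene.

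**Figure D1:**
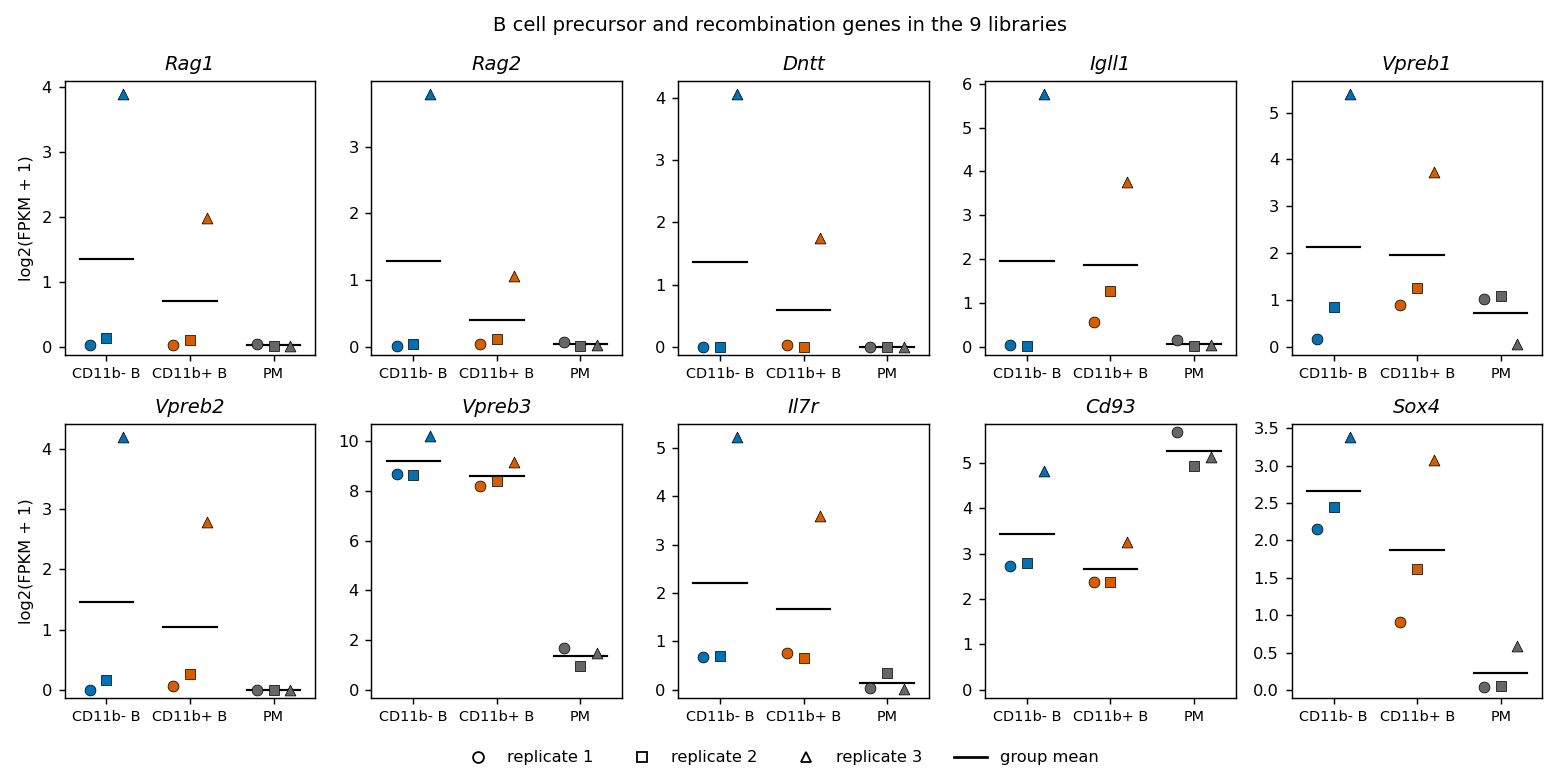
Level of each of the 10 genes, as log2(FPKM + 1), in each of the 9 libraries. Points are libraries (circle, square and triangle for replicates 1, 2 and 3), colours are the CD11b- B cells, CD11b+ B cells and PMs, and lines are group means. In all 10 genes the triangle is the highest point of both B cell groups, and *Cd93* alone has its highest group in PMs.

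Ordered by mean FPKM in CD11b- B cells, *Vpreb3* (666 ± 452, SD, n = 3) came first, before *Igll1* (18.0 ± 31.1), *Vpreb1* (14.1 ± 23.7), *Cd93* (12.8 ± 12.3) and *Il7r* (12.6 ± 20.7). *Vpreb2* (5.81 ± 9.96), *Sox4* (5.79 ± 3.23), *Dntt* (5.29 ± 9.15), *Rag1* (4.69 ± 8.04) and *Rag2* (4.31 ± 7.43) followed. From *Igll1* to *Rag2* the libraries of neighbours in this order overlapped, so these neighbours did not differ beyond their spread. In CD11b+ B cells the order was *Vpreb3* (401 ± 151), *Cd93* (5.65 ± 2.54), *Igll1* (4.84 ± 6.78), *Vpreb1* (4.83 ± 6.45) and *Il7r* (4.09 ± 5.99), and then *Sox4* (3.46 ± 3.48), *Vpreb2* (2.05 ± 3.34), *Rag1* (1.02 ± 1.68), *Dntt* (0.789 ± 1.35) and *Rag2* (0.398 ± 0.596). *Vpreb3* was the only gene whose libraries lay apart from those of the next gene in the order. Replicate 3 set much of these orders. Over replicates 1 and 2 alone, the CD11b- means ran from *Vpreb3* (405 FPKM) over *Cd93* (5.75), *Sox4* (3.95), *Il7r* (0.613) and *Vpreb1* (0.457) to *Vpreb2* (0.0566), *Rag1* (0.0523), *Igll1* (0.0205), *Rag2* (0.0169) and *Dntt* (0). In CD11b+ B cells they ran from *Vpreb3* (315 FPKM) over *Cd93* (4.19), *Sox4* (1.48), *Vpreb1* (1.11) and *Igll1* (0.933) to *Il7r* (0.634), *Vpreb2* (0.123), *Rag2* (0.0540), *Rag1* (0.0450) and *Dntt* (0.00743). *Igll1* thus moved from the second place to the eighth in CD11b- B cells. In PMs *Cd93* (38.0 ± 10.9 FPKM) led *Vpreb3* (1.63 ± 0.654) and *Vpreb1* (0.724 ± 0.594), and the means of the other 7 members were at 0 to 0.188 FPKM.

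The step from the other libraries to replicate 3 was set against all genes. Replicate 3 was the highest of 3 in both B cell groups for 10 of 10 members, compared with 14.9% of the 21778 genes with a mean of at least 0.05 FPKM over the B cell libraries. On the log2(FPKM + 1) scale, replicate 3 exceeded the mean of replicates 1 and 2 by at least 1 in both groups in 7 members (*Rag1*, *Dntt*, *Igll1*, *Vpreb1*, *Vpreb2*, *Il7r* and *Sox4*), compared with 95 genes in all (0.436%). It did so by at least 2 in 9 genes, of which 4 were *Igll1*, *Vpreb1*, *Vpreb2* and *Il7r*. The other 5, named after their values were seen, were *Prg3*, *Prm1*, *Gm34095*, *Gm6525* and *Mir1191b*. These shares are descriptions of a library of each group, with no test, since the pair was singled out after its values were seen.

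In linear terms CD11b- B cells had the larger step in 8 of the 10 genes. The folds that follow compare reads of replicate 3 with the reads of replicates 1 and 2 together, each scaled to depth, and their 95% intervals cover counting error only. *Igll1* was 2653-fold higher in replicate 3 in CD11b- B cells (907 to 12870, against 3 reads) and 13.9-fold in CD11b+ B cells (11.4 to 17.2). *Rag2* was 753-fold higher (293 to 2767, against 4 reads) and 20.6-fold (10.9 to 44.1), and *Rag1* 263-fold (176 to 411) and 68.0-fold (41.5 to 120). The intervals of the groups did not overlap in *Igll1*, *Rag2* and *Rag1*, whereas those of *Vpreb2* did (299-fold, 102 to 1455, against 3 reads, and 49.8-fold, 20.9 to 155). *Dntt* was at least 827-fold higher in CD11b- B cells, against a limit of 3 reads over both libraries without a read, and 299-fold higher in CD11b+ B cells (53.1 to 11890, against 1 read), so its steps cannot be put in order. *Sox4* was the exception, 2.39-fold higher in CD11b- (2.22 to 2.58) and 5.13-fold higher in CD11b+ B cells (4.57 to 5.76).

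**Figure D2:**
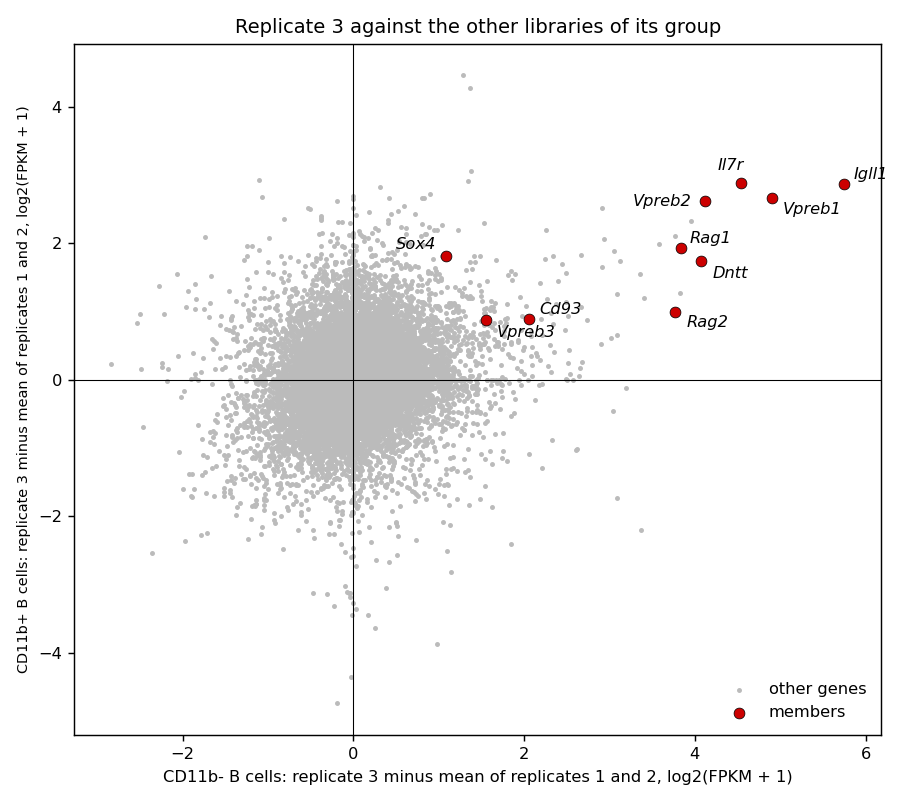
Each point is a gene, placed by how far replicate 3 lies from the mean of replicates 1 and 2 on the log2(FPKM + 1) scale, in CD11b- B cells (horizontal) and CD11b+ B cells (vertical). The 10 members (red) all lie right of and above 0, with *Igll1* at 5.75 and 2.86, while the other 21768 genes (grey) are centred near 0.

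Other genes of the same developmental stages moved with the members more widely in CD11b- than in CD11b+ B cells. Among 12 other pro-B and pre-B cell genes, replicate 3 was the highest library of both groups in 7 (58.3%), compared with 14.9% of all genes. It was the lowest of both in 1, and in CD11b- B cells alone it was highest in all but *Cd24a*. *Il2ra* and *Kit*, whose products CD25 and c-kit mark pre-B and pro-B cells in the study, went apart in CD11b+ B cells. *Il2ra* stood at 2.68, 1.82 and 14.9 FPKM in CD11b- and at 1.79, 1.31 and 2.63 FPKM in CD11b+ B cells. *Kit* stood at 0.0135, 0.0193 and 0.315 FPKM and at 0.00764, 0.0300 and 0.00955 FPKM. *Akap12*, a scaffold protein gene, stood at 18.7, 13.3 and 53.4 FPKM in CD11b- and at 6.84, 10.3 and 12.3 FPKM in CD11b+ B cells. *Myb*, a transcription factor of progenitors, stood at 6.67, 4.57 and 25.5 FPKM and at 4.51, 4.76 and 10.9 FPKM. Both were highest in replicate 3, whereas *Cd24a*, an abundant surface protein of immature B cells, was lowest in it (434, 414 and 304 FPKM, and 374, 413 and 278 FPKM).

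Of 13 genes for end joining after the RAG cut, replicate 3 was highest in both groups in 3 and lowest in both in 4. *Polm*, a polymerase of the same family as TdT, was one of the 3 (38.2, 37.8 and 96.7 FPKM in CD11b-, and 25.4, 36.7 and 50.7 FPKM in CD11b+ B cells), while *Hmgb2*, a DNA-bending cofactor of RAG, was one of the 4 (91.6, 70.8 and 50.2 FPKM, and 172, 186 and 103 FPKM). Of 13 genes of IL-7 receptor signalling 4 were highest and 2 lowest, and *Il2rg*, which encodes the γ chain that pairs with the product of *Il7r*, stood at 230, 233 and 180 FPKM and at 211, 215 and 188 FPKM. Of 16 regulators of the precursor genes 4 were highest and 2 lowest. *Tcf3*, which encodes E2A, stood at 99.2, 109 and 169 FPKM in CD11b- but at 67.1, 90.9 and 74.3 FPKM in CD11b+ B cells. The signalling partners and regulators were thus highest in replicate 3 in 4 of 13 and 4 of 16 genes, compared with 14.9% of all genes and 10 of 10 members.

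All 8 proliferation genes were lowest in replicate 3 of both groups, compared with 14.9% of all genes. *Mki67* stood at 16.3, 11.4 and 4.25 FPKM in CD11b- and at 33.4, 37.9 and 17.6 FPKM in CD11b+ B cells, and the 8 genes summed to 214, 168 and 95.5 FPKM and to 341, 327 and 147 FPKM. Replicate 3 was the highest of both groups in 4 of 7 plasma cell genes, 4 of 10 T cell genes, 2 of 8 plasmacytoid dendritic cell genes and 1 of 10 mature B cell genes. It was so in none of the 12 neutrophil, 12 monocyte and macrophage, 9 stem and progenitor cell, 7 endothelial and 6 erythroid genes in the table. Of the erythroid genes 4 (66.7%) were lowest in replicate 3 of both groups, and their sum was 21.4, 8.54 and 1.40 FPKM in CD11b- and 39.3, 39.2 and 28.2 FPKM in CD11b+ B cells. The summed plasma cell genes were 101, 109 and 179 FPKM in CD11b- and 288, 252 and 641 FPKM in CD11b+ B cells, of which *Jchain* made up 449 FPKM in CD11b+ replicate 3. *Fcer2a*, which encodes CD23 of mature B cells, stood at 234, 254 and 203 FPKM and at 174, 204 and 177 FPKM, so mature B cell transcripts stayed abundant in replicate 3. The part of these other cells or programmes in the level of the members was not tested, and in bulk RNA fewer cells of a type and less RNA per cell cannot be told apart.

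**Figure D3:**
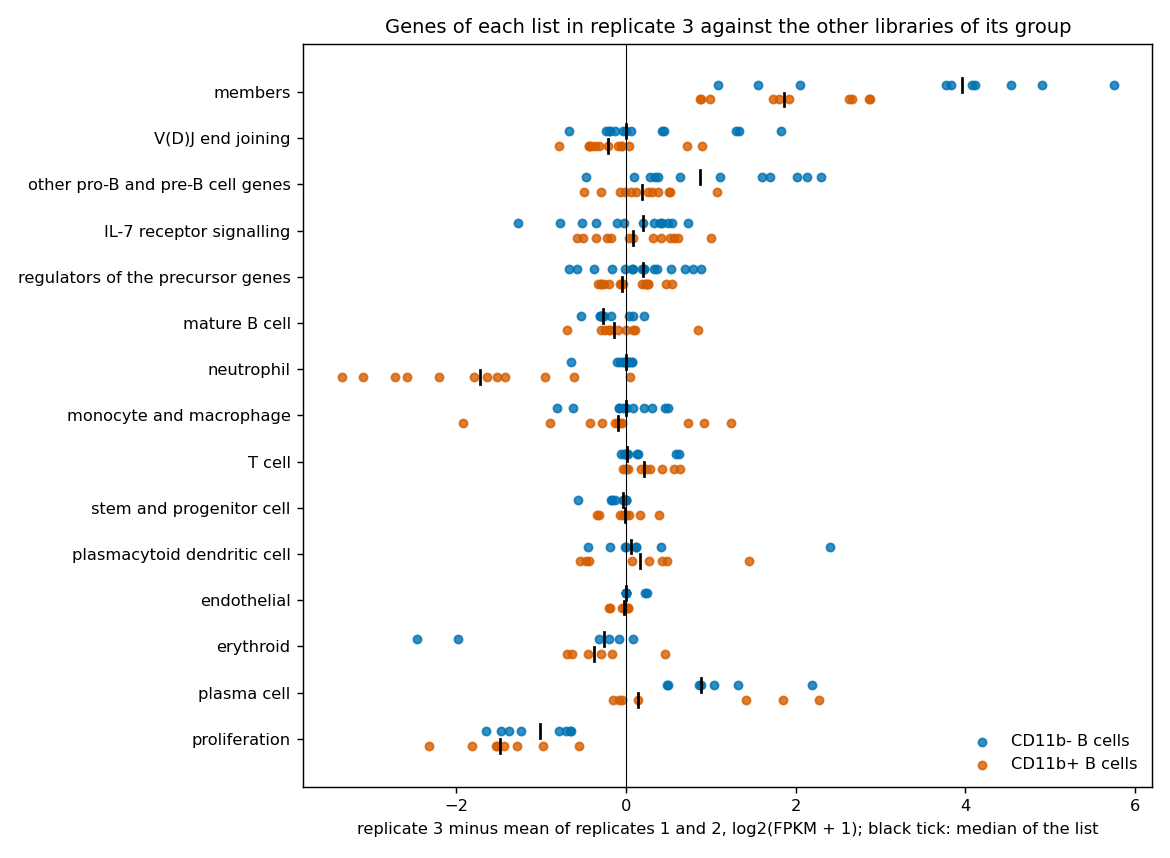
Replicate 3 minus the mean of replicates 1 and 2, on the log2(FPKM + 1) scale, for the genes of each list (points) in CD11b- B cells (blue) and CD11b+ B cells (orange), with the median of each list as a black tick. All members lie right of 0 and all 8 proliferation genes left of 0 in both groups.

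The comparison of CD11b+ with CD11b- B cells asks whether the precursor genes differ with CD11b. No member passed limma's test on log2(FPKM + 1) (adjusted p from 0.727 to 0.989, 10 of 10 tested), compared with 15 of 21778 genes (0.0689%) that were higher and 0 that were lower in CD11b+ B cells. Members with an unadjusted p under 0.05 numbered 0 against 7.68% of all genes, and edgeR (7 members tested) and DESeq2 (3 members with an adjusted p) also called 0. All 10 fitted differences were lower in CD11b+ B cells, with a median of -0.62 against 0.03 for all genes tested. The groups overlapped in all 10 members, whereas they did not overlap in 14.9% of all genes. Of the genes around the members, limma called 0 of 13 end joining, 0 of 11 other pro-B and pre-B cell, 0 of 12 IL-7 receptor signalling and 0 of 16 regulator genes in either direction, with median log2 differences of 0.06, -0.38, -0.05 and -0.23. Among the lists of other cells it called *S100a8* (6.69 ± 0.49, adjusted p = 0.0057), *S100a9* (7.03 ± 0.63, adjusted p = 0.0137) and *Retnlg* (3.87 ± 0.27, adjusted p = 0.0056), all in the neutrophil list. With a replicate block by the number in the descriptions limma called 0 genes in this comparison, so these 3 calls were lost under it. Only the numbers 1 and 5 occur in both groups, so that fit has little left to estimate spread. Its loss of calls therefore cannot weigh these 3 genes. In exact permutation tests of mean FPKM over the 3 and 3 libraries, two-sided, p ran from 0.5 to 1, where the smallest possible value is 0.1.

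Standard errors were wide for the genes read mainly in replicate 3. *Igll1* differed by -0.08 ± 1.54 (SE) on the log2 scale, *Rag1* by -0.65 ± 1.03, *Dntt* by -0.77 ± 1.07 and *Il7r* by -0.54 ± 1.29. The differences of *Vpreb3* (-0.59 ± 0.45), *Cd93* (-0.77 ± 0.55) and *Sox4* (-0.79 ± 0.56) had narrower errors. Without CD11b- replicate 3 alone, *Rag1* (0.63), *Rag2* (0.38), *Dntt* (0.59), *Igll1* (1.83), *Vpreb1* (1.45), *Vpreb2* (0.96) and *Il7r* (0.98) turned to higher in CD11b+ B cells, again with none past the threshold. The direction of *Rag1*, *Rag2*, *Dntt* and *Il7r* turned when this library alone was left out and with none of the other single libraries left out, while that of *Igll1* and *Vpreb1* also turned without CD11b+ replicate 1 or 2, and that of *Vpreb2* without CD11b+ replicate 1.

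Without replicate 3 of both groups, *Rag1*, *Rag2* and *Dntt* fell under the limit of 0.05 FPKM. *Igll1* then differed by 0.88 ± 0.27 and *Vpreb1* by 0.56 ± 0.30 toward CD11b+ B cells, and *Sox4* by -1.03 ± 0.31, *Vpreb3* by -0.36 ± 0.12 and *Cd93* by -0.38 ± 0.17 toward CD11b- B cells. *Vpreb2* (0.09 ± 0.15) and *Il7r* (0.02 ± 0.20) were near 0. None of these passed in limma either, with adjusted p from 0.377 to 0.981. The reads behind *Igll1* in replicates 1 and 2 were 109 in CD11b+ and 3 in CD11b- B cells, those behind *Vpreb1* 73 and 38, and those behind *Sox4* 385 and 1297. In replicates 1 and 2 *Igll1* and *Vpreb1* were thus higher in CD11b+ B cells and *Sox4* was lower, with 2 libraries a group.

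**Figure D4:**
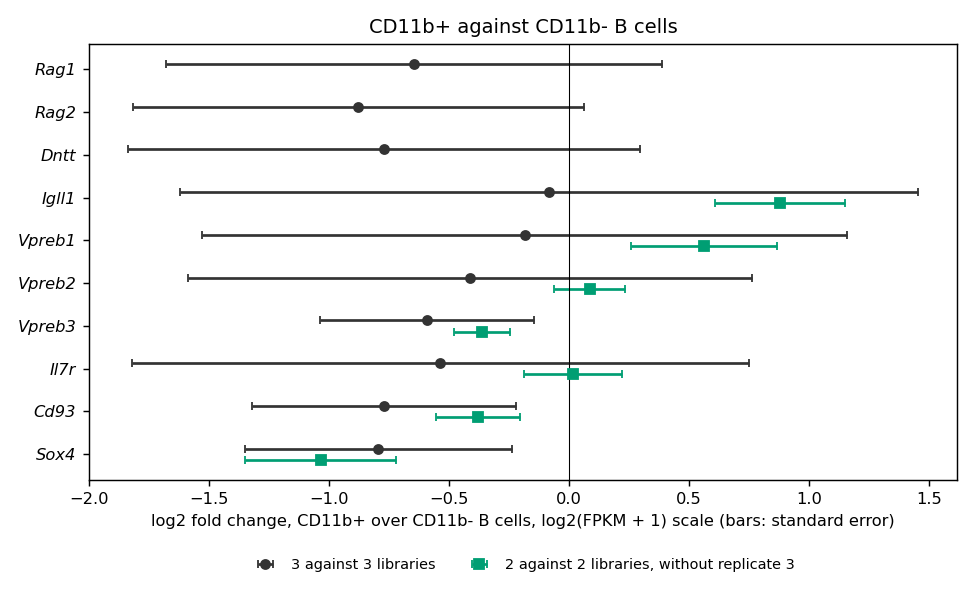
Log2 fold change of CD11b+ over CD11b- B cells on the log2(FPKM + 1) scale with its standard error, from all 6 libraries (black) and without replicate 3 of both groups (green). *Igll1*, *Vpreb1*, *Vpreb2* and *Il7r* move from below to above 0, and *Rag1*, *Rag2* and *Dntt* have no green value because they fell under the limit on FPKM.

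The libraries with the number 5 in their descriptions can be set side by side, although the sources do not say that the number marks a mouse or a day. The study repeated its RNA sequencing of the B cells in another trial, and the labels do not give the trial of a library. All 10 genes were higher in the CD11b- than in the CD11b+ library of this number, compared with 44.3% of 21778 genes. The ratios of FPKM that follow have 95% intervals that cover counting error only. *Rag2* was 11.9-fold higher (9.92 to 14.3), *Dntt* 6.74-fold (5.78 to 7.90), *Rag1* 4.72-fold (4.34 to 5.13) and *Igll1* 4.26-fold (3.97 to 4.58). The interval of *Igll1* overlapped that of *Rag1*. In this pair of libraries the recombination genes and *Igll1* differed more than *Vpreb1* (3.38-fold, 3.06 to 3.74), *Il7r* (3.31-fold, 3.14 to 3.50), *Cd93* (3.15-fold, 2.99 to 3.32) and *Vpreb2* (2.93-fold, 2.44 to 3.54). *Vpreb3* was 2.07-fold (2.03 to 2.11) and *Sox4* 1.28-fold (1.18 to 1.38) higher. Between the libraries with number 1, which are replicate 1 of both groups, only *Vpreb3*, *Cd93* and *Sox4* were higher in the CD11b- library, compared with 42.6% of 21778 genes. The other members were higher in the CD11b+ library, *Rag1*, *Rag2*, *Dntt* and *Vpreb2* on at most 4 reads a library. *Igll1* was 17.0-fold higher in the CD11b+ library (4.33 to 147, from 30 and 2 reads) and *Vpreb1* 6.82-fold higher (2.62 to 22.5), whereas *Sox4* was 3.92-fold higher in the CD11b- library (3.23 to 4.81). These ratios compare single libraries, not the groups.

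Compared with PMs, *Vpreb3* rose and *Cd93* fell in both B cell groups, and *Sox4* rose in CD11b- B cells. These comparisons share the PM libraries. In CD11b+ B cells limma called 1 member higher and 1 lower, where it called 21.5% of 22102 genes higher and 8.78% lower (30.3% in either direction), and 4 members had an unadjusted p under 0.05 against 41.2% of genes. *Vpreb3* differed by 7.23 ± 0.31 on the log2 scale (adjusted p = 2.4e-06) and *Cd93* by -2.58 ± 0.31 (adjusted p = 0.00062), in all 3 libraries against all 3. In CD11b- B cells limma called 2 members higher and 1 lower, where it called 25.8% of 20985 genes higher and 11.0% lower (36.7% in either direction), and 3 members had an unadjusted p under 0.05 against 45.8% of genes. There *Vpreb3* differed by 7.82 ± 0.43 (adjusted p = 1.0e-05), *Sox4* by 2.44 ± 0.39 (adjusted p = 0.0024) and *Cd93* by -1.81 ± 0.55 (adjusted p = 0.0347). In mean FPKM *Vpreb3* was 246-fold and 407-fold above PMs in CD11b+ and CD11b- B cells, and *Sox4* 18.4-fold and 30.7-fold. Without replicate 3 *Vpreb3* was 193-fold and 248-fold above PMs. *Sox4* was then 7.86-fold above PMs in CD11b+ B cells, and in CD11b- B cells it stood at 3.95 FPKM against 0.188 FPKM. PM replicate 3 held 49 of the 56 *Sox4* reads of PMs. Without that PM library the PM mean was 0.0294 FPKM, and *Sox4* was 118-fold and 197-fold above it with all libraries of CD11b+ and CD11b- B cells, and 50.3-fold and 134-fold above it without replicate 3 of the B cells. *Cd93* was 6.73-fold lower in CD11b+ and 2.96-fold lower in CD11b- B cells, and 9.08-fold and 6.61-fold lower without replicate 3. After median-ratio scaling, 51.0% rather than 71.0% of the calls among all genes were higher in CD11b+ B cells and 51.4% rather than 70.1% in CD11b- B cells, and the calls of *Vpreb3*, *Cd93* and *Sox4* held. Among the genes around the members, limma called 8 of 13 end joining genes higher in each B cell group, 12 of 16 regulators higher and 3 lower in each, and 6 other pro-B and pre-B cell genes higher and 1 lower in each (10 tested in CD11b+ and 11 in CD11b- B cells). Of 13 IL-7 receptor signalling genes 5 were higher in CD11b+ and 6 in CD11b- B cells, and 1 was lower in each.

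The *Cd93* call in CD11b- B cells depended on the library set. It was lost when CD11b- replicate 1 (adjusted p = 0.133), CD11b- replicate 2 (0.131), PM replicate 1 (0.0973), PM replicate 2 (0.0658) or PM replicate 3 (0.0772) was left out of limma's fit, and it held without CD11b- replicate 3 (-2.50, adjusted p = 0.0022). *Sox4* in CD11b+ B cells differed by 1.64 ± 0.54 with an adjusted p of 0.0509 by limma, just outside the threshold, and by 1.04 ± 0.32 (adjusted p = 0.0608) without replicate 3. *Igll1* in CD11b+ B cells differed by 1.80 ± 0.74 (adjusted p = 0.105 by limma), and by 0.84 ± 0.24 (adjusted p = 0.0493) without replicate 3, at a mean of 0.933 FPKM against 0.0471 FPKM in PMs. On the recovered reads of all libraries both genes passed in this comparison, *Igll1* with an adjusted p of 0.0105 by edgeR and 4.6e-06 by DESeq2, and *Sox4* with 0.0489 and 0.0034. *Vpreb1* without that library differed by 0.35 ± 0.40 (adjusted p = 0.523 by limma), and *Vpreb2* fell under the limit on FPKM.

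The other members did not pass limma's test against PMs with all libraries. On the recovered reads edgeR called *Il7r* higher in CD11b+ (adjusted p = 0.0396) and in CD11b- B cells (adjusted p = 0.0288), where DESeq2 gave it no adjusted p. Adjusted p by limma was from 0.152 to 0.343 for *Rag1*, *Rag2*, *Dntt*, *Vpreb1*, *Vpreb2* and *Il7r* in CD11b+ B cells and from 0.196 to 0.393 for these and *Igll1* in CD11b- B cells. With all libraries fitted differences were positive, from 0.37 for *Rag2* to 1.53 for *Il7r* in CD11b+ and from 1.25 for *Rag2* to 2.07 for *Il7r* in CD11b- B cells. *Il7r* lay above PMs in all 3 libraries of both groups, and its mean without replicate 3 was 0.634 FPKM in CD11b+ and 0.613 FPKM in CD11b- B cells against 0.102 FPKM in PMs. PM replicate 2 held 37 of the 40 PM reads, and without it the PM mean was 0.0172 FPKM. *Vpreb1* in CD11b- B cells turned from 1.42 to -0.21 on the log2 scale without replicate 3. Without it CD11b- B cells had 4 reads of *Rag2* against 5 in PMs (0.0169 and 0.0244 FPKM), 3 of *Igll1* against 6 (0.0205 and 0.0471 FPKM) and 0 of *Dntt* on both sides. These few reads set no direction, since without PM replicate 1 the PM means of *Rag2* (0.0122 FPKM) and *Igll1* (0.0194 FPKM) lay below those of CD11b- B cells. The *Rag1* means without replicate 3 were 0.0523 FPKM (24 reads) in CD11b- and 0.0450 FPKM (16 reads) in CD11b+ B cells, against 0.0126 FPKM (5 reads) in PMs. Replicate 2 held 21 and 12 of these B cell reads. Replicate 1 (0.0136 and 0.0206 FPKM) lay within the range of PMs, so the higher means rest on 1 library of each group. The groups did not overlap in 6 of 10 members in CD11b+ B cells against PMs, compared with 46.7% of genes, and in 4 of 10 in CD11b- B cells, compared with 51.4%. The exact permutation test gave these members the smallest p it allows, 0.1.

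The starts of these genes were read for motifs of transcription factors that act in B cell development. RefSeq promoters on GRCm38.p6, from 250 bases before to 50 after the start, were found for 9 members, all but *Cd93*. Both strands were searched for CAGGTG (E2A), CCCNNGGG (EBF1), TGTGGT (RUNX1) and TGGGAA (IKZF1). CAGGTG was in 4 of the 9 (*Igll1*, *Rag1*, *Vpreb1* and *Vpreb2*) and in 20.2% of 32817 promoters, TGTGGT in 4 (*Igll1*, *Il7r*, *Rag1* and *Vpreb3*) and in 16.8%, TGGGAA in 3 (*Rag1*, *Sox4* and *Vpreb2*) and in 25.6%, and CCCNNGGG in 1 (*Igll1*) and in 13.7%. The promoters of 3 genes with a large step to replicate 3 are shown on the strand of the gene with the matches in capitals, on either strand, for *Igll1* (chr16:16863936-16864235, minus), *Rag1* (chr2:101649483-101649782, minus) and *Vpreb1* (chr16:16869206-16869505, minus).
Igll1: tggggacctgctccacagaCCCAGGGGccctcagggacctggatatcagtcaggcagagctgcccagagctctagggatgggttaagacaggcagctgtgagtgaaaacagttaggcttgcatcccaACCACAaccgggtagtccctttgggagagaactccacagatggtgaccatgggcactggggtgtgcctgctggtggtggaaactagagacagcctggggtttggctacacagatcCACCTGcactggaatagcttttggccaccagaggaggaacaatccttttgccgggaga
Rag1: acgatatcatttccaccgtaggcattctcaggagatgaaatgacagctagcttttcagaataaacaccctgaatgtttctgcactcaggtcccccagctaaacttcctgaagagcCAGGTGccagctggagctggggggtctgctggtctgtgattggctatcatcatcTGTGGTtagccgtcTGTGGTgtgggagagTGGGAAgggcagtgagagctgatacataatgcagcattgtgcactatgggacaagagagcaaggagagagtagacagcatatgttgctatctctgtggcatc
Vpreb1: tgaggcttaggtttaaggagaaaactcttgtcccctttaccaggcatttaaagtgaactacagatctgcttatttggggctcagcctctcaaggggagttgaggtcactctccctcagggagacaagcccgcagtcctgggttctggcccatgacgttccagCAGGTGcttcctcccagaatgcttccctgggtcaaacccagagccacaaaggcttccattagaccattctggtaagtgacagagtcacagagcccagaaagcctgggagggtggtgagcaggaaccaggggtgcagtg
In *Igll1* the EBF1, RUNX1 and E2A letters begin 231, 123 and 8 bases before the start, and in *Rag1* the E2A letters begin 135, the RUNX1 letters 81 and 67, and the IKZF1 letters 52 bases before it. In *Vpreb1* the E2A letters begin 88 bases before the start. The *Vpreb1* and *Vpreb2* matches lie in the same run of 91 identical letters of these near-copies, so they are not separate counts. A match is a description of letters, not a site of binding.

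The genes closest in profile to the members over the 9 libraries included some named for roles outside B cells. Likeness was the root mean square difference of log2(FPKM + 1), each gene centred on its own mean, among 14208 genes with a mean of at least 1 FPKM in a group. *Prm1*, which encodes a protamine of sperm chromatin, was nearest to *Rag1* (0.165), *Vpreb2* (0.183), *Vpreb1* (0.463) and *Igll1* (0.676). It stood at 0, 0.201 and 13.9 FPKM in CD11b- and at 0.0596, 0.401 and 4.22 FPKM in CD11b+ B cells. *Slc12a3*, a sodium and chloride transporter, was nearest to *Dntt* (0.243) and *Rag2* (0.271), and *Prg3*, a granule protein of eosinophils, to *Il7r* (0.324). *Prg3* stood at 1.39, 0.785 and 31.1 FPKM and at 1.11, 0.322 and 7.38 FPKM, so these genes too were high in replicate 3 and low elsewhere. *Cd72*, a B cell coreceptor, was nearest to *Vpreb3* (0.420), ahead of the λ light chain genes *Iglc1* (0.467) and *Iglv1* (0.574). *Gas7* (0.200), *Thbd* (0.227) and *Plk2* (0.327) were nearest to *Cd93*, and *Thbd*, which encodes thrombomodulin, stood at 1.27, 1.40 and 12.3 FPKM in CD11b- B cells and at 9.99 to 19.2 FPKM in PMs. The nearest to *Sox4* were *2310001K20Rik* (0.345), *Phf2os1* (0.365) and *Gm12568* (0.402). A likeness over 9 libraries of 3 groups shares those groups and libraries and carries no test.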

How the data were processed

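RNA sequencing of 9 libraries in 3 groups was analysed. Groups and replicate numbers were taken from the sample titles. Libraries were prepared with a SMART-seq HT kit without molecular identifiers. Per the study's methods and the submitters' processing notes, reads were trimmed with Trim Galore (0.4.4), Trimmomatic (0.36) and cutadapt (1.16), mapped to GRCm38 with STAR (2.7.2b) and counted with featureCounts (1.6.1). The deposited FPKM values divide these counts by exon length and reads on genes. The authors also deposited a normalized signal, counts over a size factor, for 11063 genes, 4 of them members. The build behind the positions of the tables is not settled, as the notes name GRCm38 and GRCm39, so positions are those of GENCODE M21 by identifier.

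Reads recovered from FPKM were whole (within 0.05) for 100% of values in every library and equalled those behind the normalized signal. A count of 0 was bounded at 3 reads. Intervals and bounds cover counting error only.

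limma (3.58.1, R 4.3.3; two-sided, eBayes with a trend after lmFit) was run on log2(FPKM + 1) for the 6 libraries of each comparison, over genes with a mean of at least 0.05 FPKM, with Benjamini-Hochberg adjustment over all of them and a threshold of 0.05. Fold changes on this scale understate those of low genes. Alternatives were a pseudocount of 0.1, no filter or a minimum of 1 FPKM, all 9 libraries, replicate blocks, eBayes without a trend, scaling by median ratios, by quantiles or to the reads outside immunoglobulin genes, edgeR (4.0.16) and DESeq2 (1.42.0, at least 10 reads) on the recovered reads, and each library left out. Leaving out replicate 3 of both B cell groups was chosen after seeing the data. Fits were tested on simulated data. Genes beside the members were named as the at most 4 highest of a list, those called between the B cell groups, and the 3 nearest profiles of a member. *Il2ra* and *Kit* were added as the study's own pre-B and pro-B cell markers after their values were seen. The members and lists were chosen with earlier results of these data known.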

Additional observations from a re-analysis of the deposited data

How the results depend on the processing

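Between CD11b+ and CD11b- B cells, members called stayed at 0 in each direction in every alternative run. Without CD11b- replicate 3, 3 members no longer overlapped (*Rag2*, *Igll1* and *Vpreb1*, higher in CD11b+ B cells), as did 23.8% of 21778 genes, and without CD11b+ replicate 3 another 3 (*Vpreb3*, *Cd93* and *Sox4*, lower in CD11b+ B cells), as did 25.8%. Besides the reversals without CD11b- replicate 3, and without replicate 3 of both groups, given with the comparison, *Igll1* was higher in CD11b+ B cells with a pseudocount of 0.1 (1.27), without CD11b+ replicate 1 (0.57) and without CD11b+ replicate 2 (0.22). *Vpreb1* was so under the same settings (0.35, 0.35 and 0.17), and *Vpreb2* without CD11b+ replicate 1 (0.08). None of these passed the threshold. With 1 library left out in turn, the difference ran from -1.05 to 1.83 for *Igll1*, -1.17 to 1.45 for *Vpreb1*, -1.50 to 0.98 for *Il7r*, -1.29 to 0.96 for *Vpreb2*, -1.31 to 0.63 for *Rag1*, -1.45 to 0.59 for *Dntt* and -1.51 to 0.38 for *Rag2*, each highest without CD11b- replicate 3. Without replicate 3 of both groups the values were 0.88 for *Igll1*, 0.56 for *Vpreb1*, 0.087 for *Vpreb2* and 0.018 for *Il7r*. In CD11b- B cells against PMs *Vpreb1* ran from -0.21 to 2.41 with 1 library left out and was -0.21 without replicate 3 of both.

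All genes called higher in this comparison (15) were 34 with a pseudocount of 0.1, 2 without a filter, 31 at a minimum of 1 FPKM, 31 with all 9 libraries, 9 after quantile normalization, 42 by edgeR, 328 by DESeq2, 29 without replicate 3 of both groups and 3 to 40 with 1 library left out (40 without CD11b+ replicate 3). Genes called lower (0) were 3, 4, 5 and 64 with the pseudocount, without a filter, with 9 libraries and by DESeq2. A replicate block by the number in the descriptions left 0 genes called, and one by title number 16. The block by description compares the groups only within the numbers 1 and 5, so its 0 calls decide nothing. Deviations of same-numbered libraries of the B cell groups correlated at 0.287, -0.017 and 0.209 over 11986 genes, and CD11b- replicate 2 and CD11b+ replicate 2 correlated best with another number, so the titles do not pair the samples. Replicates 1 and 3, which also share a number in the descriptions, were each other's best match, a hint from the data and not from the design. The cause of these shifts was not tested.

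Against PMs, members called higher in CD11b+ B cells (1) were 4 by edgeR (with *Igll1*, *Sox4* and *Il7r*) and 3 by DESeq2 (with *Igll1* and *Sox4*) or with a pseudocount of 0.1. They were 2 at a minimum of 1 FPKM, with 9 libraries, without immunoglobulin genes, with the replicate block by title number, without replicate 3 of both groups, and without CD11b+ replicate 1 or 3 (range 1 to 2). The *Cd93* call in CD11b- B cells was also lost without a filter, which left 0 members lower (0 to 1 with 1 library left out). Genes called higher in CD11b+ B cells (4760) were 2850 by edgeR, 2765 after median-ratio scaling, 2706 after quantile normalization and 2864 without a filter, and 3152 to 4919 with 1 library left out, and those called lower (1940) were 3404 by DESeq2. In CD11b- B cells (5404 higher, 2306 lower) the same settings gave 3200, 3329, 3415 and 3375 higher, and 4014 lower by DESeq2. Median-ratio scaling moved the median of all genes from 0.25 to 0.11 and from 0.24 to 0.06, and the share of higher calls from 71.0% to 51.0% and from 70.1% to 51.4%.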
